A study of Mus musculus with 4 samples.

Results

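The cells described here are the T cells in division among the immune cells of a mouse tumour. They are the members of cluster 9 in the authors' table of all CD45+ cells, taken by that cluster number and matched to the count matrices by library and cell barcode. The cluster held 591 of the 14491 listed cells, with 137 from the isotype control library, 108 from anti-PD-1, 202 from anti-CTLA-4 and 144 from the combination. Values for the 4 libraries are given in that order throughout, and ratios to control in the order of the 3 treated libraries. CD45+ cells (CD45 marks nearly every blood-derived cell) were sorted alive from transplanted tumours and measured by droplet RNA sequencing of 3′ transcript ends. All mice were wild type and of the inbred strain 129S6. They were injected on days 3, 6 and 9 after transplant with 200 µg of rat IgG2a as the isotype control, of the anti-PD-1 clone RMP1-14, of the anti-CTLA-4 clone 9D9, or with both checkpoint antibodies together. The tumour line, the age of the mice and how many mice made up a library were not given in the sources used here. Each antibody group was 1 library, so no difference between groups has a replicate check, and no test was run. A group cannot be told apart from its library or from a batch.

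A T cell that meets its antigen leaves quiescence, copies its DNA in S phase and divides in M phase, and its daughters carry on as effector or memory cells. In tumours, CD8 T cells that kill targets through granzymes and perforin divide beside CD4 T helper cells and Foxp3+ regulatory T cells. PD-1 (the product of Pdcd1) and CTLA-4 are inhibitory receptors that T cells raise after activation, and the antibodies are given to block them.

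Each unique molecular identifier (UMI) stands for 1 captured transcript. Cluster 9 held 3172603 UMIs, with 546289 to 1181508 per library. Its median cell carried 4852 UMIs and 1695 genes, against 1727 UMIs and 806 genes in the non-cycling T clusters 3, 6, 8 and 10 (3238 cells), a ratio of 2.81 that ran from 2.54 to 3.00 within libraries. Shares of cells with a UMI are therefore also given after each cell was thinned to 1000 UMIs. Cells with fewer UMIs were left out of the thinned values. These were 0 cells of cluster 9 and 260 of the non-cycling T clusters, with 2, 69, 39 and 150 in the 4 libraries. Of the 591 cells, 15 carried a barcode that also stood in another library, as did 220 of all cells. The doublet caller Scrublet marked 1 of 14491 cells, so its threshold did not work here. Among the 3% of each library that scored highest, 21 cells were of cluster 9. Lyz2, a lysozyme gene of macrophages, had a UMI in 71.2% of cluster 9 cells and 42.3% of non-cycling T cells, and in 25.4% and 26.4% after thinning. All 15 markers of the macrophage list were seen in cluster 9, with a summed level of 2540, 2281, 1512 and 1677 UMIs per 1000000 (UPM) in the 4 libraries. The B cell genes Cd79a and Ms4a1, all 4 erythroid markers and the dendritic cell genes Xcr1 and Clec9a were at 0. The part of macrophage RNA in the results below was not tested.

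The label of the cluster was checked against its markers. Among the genes with the highest fold over all other listed cells were Nusap1, Rrm2, Ccna2, 2810417H13Rik, Hist1h2ap, Hmmr, Hist1h1b, Stmn1 and Fbxo5, which are genes of DNA replication, chromatin and the mitotic spindle. Mki67, the gene of the proliferation antigen Ki-67, had a UMI in 58.0% of cluster 9 cells, and Top2a, a topoisomerase that untangles DNA before division, in 72.9%. In the non-cycling T clusters these shares were 1.92% and 3.37%, and in the macrophage-like clusters 1 and 2, at a median of 3519 UMIs, 3.86% and 2.29%. After thinning, Mki67 was in 19.1%, 0.907% and 1.497% of the same 3 sets of cells. Cd3e, a chain of the T cell receptor complex, had a UMI in 78.7% of cluster 9 cells, against 71.4% in the non-cycling T clusters and 3.04% in the macrophage-like clusters. The cluster thus carried its cycling and T cell markers. It was not made of T cells alone. In 48 of its cells (8.12%, with 8.92% of its UMIs), a UMI of the NK cell genes Ncr1 or Klrb1c stood without any UMI of Cd3d, Cd3e or Cd3g. The 4 libraries held 11, 17, 18 and 2 such cells, or 8.03%, 15.7%, 8.91% and 1.39% of cluster 9. They are called NK-marked cells below, and several of the results they touch are given with and without them.

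The lineages in division differed between the libraries. Cells were sorted by their UMIs into Cd8 cells (Cd8a or Cd8b1, the chains of the CD8 co-receptor, without Cd4), Cd4 cells (Cd4 without Cd8a or Cd8b1), cells with both and cells with neither. In the control library, 94 of 137 cells were Cd8 cells, 10 were Cd4 cells, 1 held both and 32 neither. With anti-PD-1 the numbers were 46, 13, 2 and 47, and with anti-CTLA-4 they were 94, 43, 7 and 58. In the combination library they were 42, 51, 3 and 48, so Cd4 cells outnumbered Cd8 cells there and in no other library. At an equal depth of 1000 UMIs a cell they did so in no library, with 32 Cd8 and 11 Cd4 cells in the combination.

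The share of Cd8 cells in cluster 9 was 68.6% (exact Clopper-Pearson 95% interval 60.1 to 76.3) in control and 29.2% (21.9 to 37.3) in the combination, with 42.6% and 46.5% in anti-PD-1 and anti-CTLA-4. The share of Cd4 cells was 7.30% (3.56 to 13.01), 12.04%, 21.3% and 35.4% (27.6 to 43.8) in the same order. All intervals here cover counting error only. At full depth the control and combination intervals did not overlap for either lineage. Each group is 1 library, so this sets libraries apart and not antibodies. In the non-cycling T clusters the Cd4 share stayed between 26.1% and 29.0%, and the Cd8 share was 32.7%, 20.3%, 25.1% and 21.2%. Macrophage-like clusters 1 and 2, which should lack both, held 2.03% Cd8 cells and 1.21% Cd4 cells. After thinning, the Cd8 share of cluster 9 was 50.4%, 36.1%, 37.1% and 22.2%, and the Cd4 share 2.92%, 4.63%, 6.93% and 7.64%, from 4, 5, 14 and 11 cells. The Cd8 order of control over the single antibodies over the combination was the same at equal depth, and the thinned Cd4 shares rest on few cells.

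**Figure D1:**
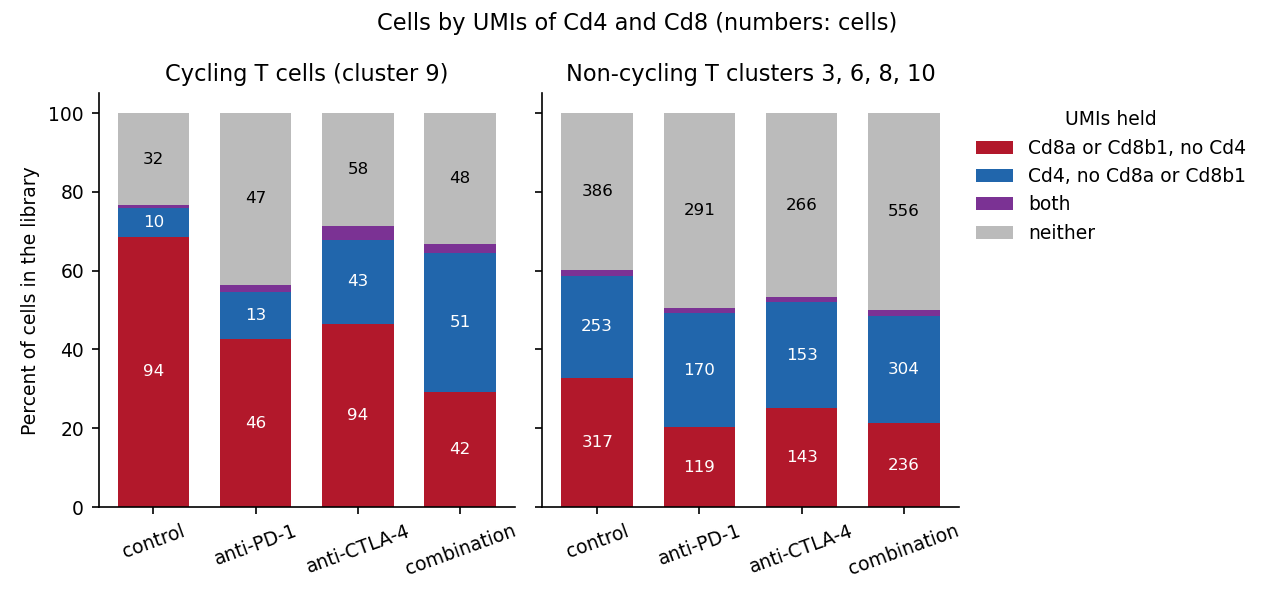
Percent of cells (y axis) with UMIs of Cd8a or Cd8b1, of Cd4, of both or of neither, by library, in cycling cluster 9 (left) and in the non-cycling T clusters (right), with the number of cells printed in each block. In cluster 9 the control library holds 94 Cd8 and 10 Cd4 cells and the combination 42 and 51, while the Cd4 share in the right panel stays between 26.1% and 29.0%.

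Summed levels showed the same pattern. Cd4 stood at 26.5, 34.8, 76.2 and 105.9 UPM in cluster 9 of the 4 libraries. The non-cycling T clusters had 198, 232, 198 and 217 UPM, so the Cd4 level of dividing cells was lower than that of non-dividing cells in all 4 libraries and closest to it in the combination. Cd8a went the other way, at 399, 251, 256 and 146 UPM in cluster 9 and 320, 189, 165 and 173 UPM in the non-cycling clusters. In such sums, more cells of a lineage and more transcript per cell cannot be told apart.

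Cells with neither co-receptor were not all of 1 kind. Of the 185, 113 had a Cd3 UMI and no NK cell gene, 15 had both, 48 were the NK-marked cells and 9 had none of these genes. In the combination library 45 of 48 had a Cd3 UMI and no NK cell gene. Foxp3, the master gene of regulatory T cells, had a UMI in 9, 3 and 5 cells of control, anti-PD-1 and anti-CTLA-4, or 6.57%, 2.78% and 2.48% of cluster 9. It was seen in 0 of 144 cells of the combination, which allows a share of cells with a UMI of up to 2.08% and sets no limit on cells that express the gene. In the non-cycling T clusters the shares were 8.87%, 3.41%, 1.41% and 1.80%, and in the macrophage-like clusters Foxp3 was seen in 0.154% of cells. The authors' second table, of lymphoid cells, put 534 of the 591 cells into its cluster 3, which held 547 cells in all, and 36 into its cluster 5. Of those 36, 35 were Cd8 cells, and 15, 8, 11 and 2 came from the 4 libraries. Of the 534, 234 were Cd8 cells and 112 Cd4 cells, so the second clustering also kept dividing cells of both lineages together.

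Cluster 9 was 12.4%, 15.5%, 26.2% and 11.5% of the T cell-like cells (clusters 3, 6, 8, 9 and 10) of the 4 libraries, so it was highest with anti-CTLA-4. The log2 ratio to control was 0.33 (-0.05 to 0.70) for anti-PD-1, 1.08 (0.76 to 1.41) for anti-CTLA-4 and -0.11 (-0.46 to 0.24) for the combination. Only the anti-CTLA-4 interval lay off 0. Over all listed cells the shares were 3.61%, 3.16%, 6.06% and 3.65%, which turned the anti-PD-1 ratio to -0.19. A gate on Mki67 or Top2a at equal depth gave -0.06 for anti-PD-1.

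Within each lineage the libraries ordered differently. Among Cd4 cells of the T cell-like clusters, 3.80%, 7.10%, 21.9% and 14.4% were in cluster 9 in the 4 libraries. The log2 ratios to control were 0.89 (-0.40 to 2.25), 2.47 (1.51 to 3.69) and 1.86 (0.92 to 3.06). Among Cd8 cells the shares were 22.9%, 27.9%, 39.7% and 15.1%, with ratios of 0.29 (-0.26 to 0.81), 0.79 (0.37 to 1.22) and -0.59 (-1.16 to -0.06). With the combination, the cycling share was therefore higher than in control among Cd4 cells and lower among Cd8 cells. After thinning to 1000 UMIs the Cd4 shares were 2.25%, 4.81%, 14.9% and 5.76% and the Cd8 shares 19.5%, 28.7%, 39.7% and 14.5%. Cells under 1000 UMIs, which were all non-cycling and came mostly from the treated libraries, are absent from these thinned shares. The thinned intervals of control and combination overlapped in each lineage. The combination value among Cd4 cells had the widest gap between the full and the thinned reading, and the thinned Cd4 shares rest on 4, 5, 14 and 11 cycling cells.

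**Figure D2:**
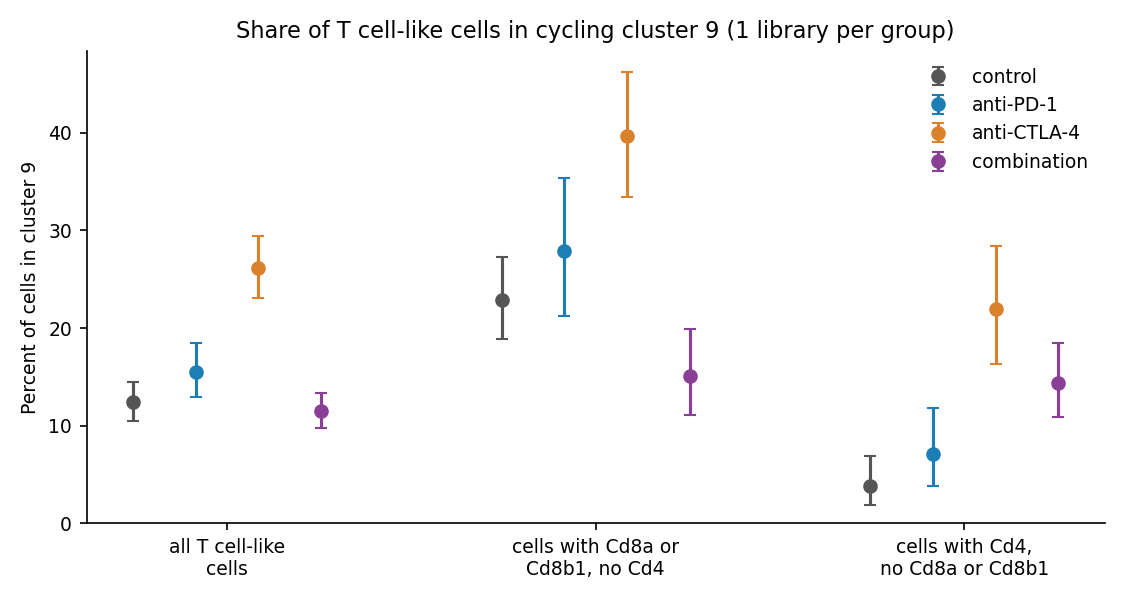
Percent of T cell-like cells that belong to cluster 9 (y axis), for all such cells and for Cd8 and Cd4 cells, with 1 point per library and bars for the exact 95% interval of counting error. Anti-CTLA-4 was highest in all 3 sets, at 26.2%, 39.7% and 21.9%, and the combination lay under control for Cd8 cells (15.1% against 22.9%) and over it for Cd4 cells (14.4% against 3.80%).

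Cluster 9 was next described gene by gene against the non-cycling T clusters. The clusters were made from these same genes, so the values describe the cluster and are no test. Counts were summed over cells, and a log2 ratio compares the shares of all UMIs with 0.5 added to each count. Of 10124 genes with at least 20 UMIs in both sums together, 969 were at least 2-fold higher in cluster 9 (9.57% of those tested) and 625 at least 2-fold lower (6.17%), with a median over all genes of -0.02. The 2-fold step is used as the call throughout.

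All 57 genes of the mitosis and G2/M list were at least 2-fold higher, with a median log2 ratio of 4.94. Nusap1, which bundles spindle microtubules, had 927 UMIs in cluster 9 and 17 in the reference (6.84, exact 95% interval 6.19 to 7.67). It had 221, 201, 286 and 219 UMIs in the 4 libraries, against 3, 5, 5 and 4 in the non-cycling cells of the same libraries, so the difference was in every library. Plk1, a kinase that drives entry into mitosis, had 239 UMIs against 2 (7.69, 6.14 to 11.07). Ube2c, which helps destroy cyclins at the end of mitosis, had 1146 against 44 (5.80), and Ccna2, cyclin A2, 622 against 14 (6.53). Mki67 stood at 234, 201, 201 and 203 UPM in cluster 9 of the 4 libraries and at 10.2, 11.3, 7.60 and 9.39 UPM in the non-cycling cells, with within-library ratios of 4.11 to 4.65. The level of these genes in cluster 9 thus differed little between antibody groups beside the gap to the non-cycling cells. For Mki67 the ratios to control in cluster 9 were -0.21, -0.22 and -0.21.

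The S phase list had 48 of 50 genes at least 2-fold higher, none lower by that step, and a median of 2.72. Rrm2, the regulated subunit of the enzyme that makes deoxynucleotides, had 1748 UMIs against 127 (4.89). Cdc6, which loads the replicative helicase on DNA, had 110 against 7 (4.99), and E2f8, a repressor that limits the E2F programme, 71 against 3 (5.46, 4.07 to 7.99). 2810417H13Rik, which encodes a clamp-associated replication factor, had 3788 against 213 (5.26). Rrm1, the partner of Rrm2, had 454 against 121 (3.01), and Chaf1a, a histone chaperone at the replication fork, 113 against 20 (3.58). Within libraries the S phase median ran from 2.42 to 2.79 and the G2/M median from 4.66 to 4.93.

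Mitotic promoters often carry the cell cycle genes homology region (CHR), a short element read by the complexes that silence these genes in resting cells and switch them on before mitosis, and many S phase promoters carry sites for E2F factors. Promoters are shown because the members of each list were higher together. RefSeq promoters (GRCm38.p6) matched 49 of the 57 G2/M genes, and each was searched from 250 bases before the start to 50 after it, on both strands, with no account of overlap between motifs. The CHR letters TTTGAA or TTTAAA stood in 39 of the 49 (79.6%). They stood in 23% of the 8106 tested genes that had a promoter and in 30.6% of all 27025 genes with one. A gene counted if any of its promoters held the letters. CCAAT stood in 38 of 49 (77.6%; 43.4% and 41.1%), and both CHR and CCAAT in 33 of 49 (67.3%; 10.8% and 13.4%). E2F letters (TTTCGCGC, TTTGGCGC or TTCCCGCC) stood in 2 of 49 (4.08%; 6.97% and 3.39%). For the S phase list only 39 of 50 genes had a matched promoter, too few for a share. The last 100 bases before the start are printed for 2 mitotic genes with the CHR letters in capitals. They are also printed for 2 S phase genes with the E2F letters in capitals. Only genes that hold the letters in this stretch were eligible, so the examples do not show how common the letters are in a list. A match of letters is not a shown binding site.
Plk1 (chr7:122159335-122159434, plus strand): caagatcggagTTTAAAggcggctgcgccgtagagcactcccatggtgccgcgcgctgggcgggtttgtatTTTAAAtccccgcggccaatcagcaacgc
Ube2c (chr2:164769829-164769928, plus strand, where TTCAAA is TTTGAA on the other strand): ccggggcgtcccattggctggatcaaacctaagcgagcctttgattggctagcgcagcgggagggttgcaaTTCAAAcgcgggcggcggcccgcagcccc
Rrm1 (chr7:102441595-102441694, plus strand): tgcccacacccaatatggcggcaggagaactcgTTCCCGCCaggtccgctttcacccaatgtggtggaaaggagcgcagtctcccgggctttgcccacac
Chaf1a (chr17:56040316-56040415, plus strand): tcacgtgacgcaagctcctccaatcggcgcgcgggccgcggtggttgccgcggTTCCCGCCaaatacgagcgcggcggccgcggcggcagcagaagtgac

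Genes that supply division were higher as well, by less. Among histones and chromatin proteins 20 of 23 measured genes were at least 2-fold higher (median 1.96), led by the replication-dependent histone Hist1h2ap with 4458 UMIs against 152 (5.98). In nucleotide and one-carbon synthesis 17 of 30 were (median 1.11), among them Shmt1 (98 against 28 UMIs, 2.90) and Phgdh, the entry enzyme of serine synthesis (556 against 337, 1.83). The list of G1 cyclins, CDK inhibitors and E2F factors was mixed, with 8 of 25 at least 2-fold higher and 4 lower (median 0.28). E2f1 (114 against 41 UMIs, 2.57) and the CDK inhibitor Cdkn2c (373 against 160, 2.33) were among the higher ones. Chaperones had a median of 0.49 with 1 of 17 past 2-fold, Hsp90aa1 (688 against 296 UPM, 1.22). Of 33 genes of the respiratory chain, 24 ribosomal proteins and 18 glycolytic genes, 1 in all was past 2-fold, the glucose transporter Slc2a3 at -1.22. The medians of these 3 lists were 0.20, -0.025 and -0.19.

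**Figure D3:**
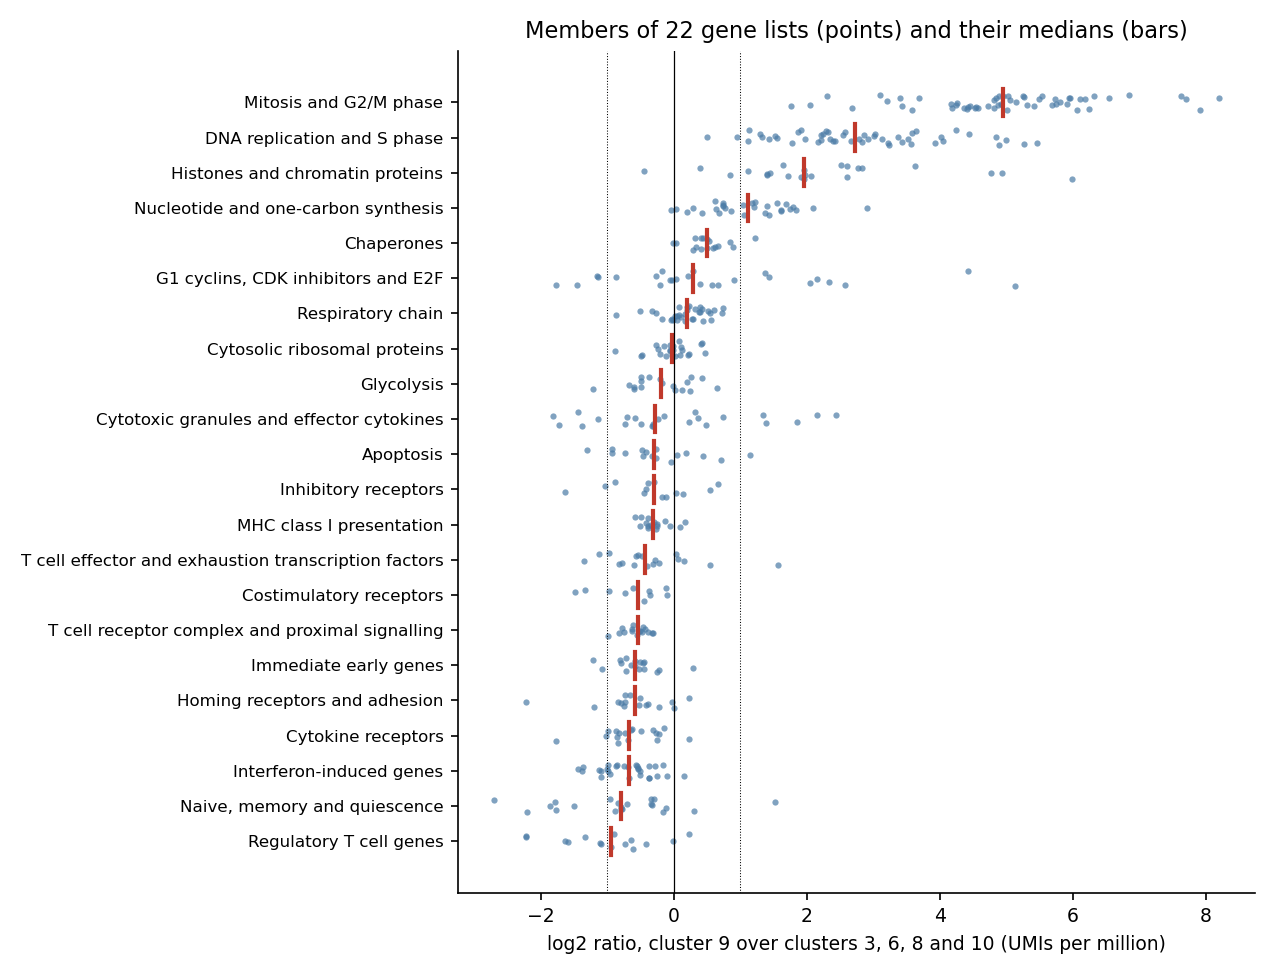
Log2 ratio of cluster 9 to the non-cycling T clusters (x axis) for each measured member of 22 gene lists (points) with the list median (red bar) and dotted lines at 2-fold. Mitosis and S phase genes lie far to the right with medians of 4.94 and 2.72, and the naive and memory, regulatory T cell, interferon and cytokine receptor lists lie left of 0.

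Genes of T cell receptor signalling, cytokine receptors, naive and memory genes and interferon-induced genes lay mostly under 0 in cluster 9, as shares of all UMIs. Of all 10124 genes tested, 4952 were above 0. The median cell of cluster 9 held 2.81 times the UMIs of the reference, so a lower share need not mean fewer transcripts in a cell. All 16 measured genes of the T cell receptor complex were under 0, from -0.99 to -0.31, with none past 2-fold and a median of -0.535. Of 18 cytokine receptors 17 were under 0 (median -0.67), and so were 19 of 21 naive and memory genes (-0.79) and 28 of 29 interferon-induced genes (-0.68). Il7r, the receptor for the survival cytokine IL-7, stood at 94.1, 53.1, 55.9 and 44.5 UPM in cluster 9 of the 4 libraries, and at 263, 243, 154 and 170 UPM in the non-cycling cells. It was lower in cluster 9 in every library (-1.77 in all, -2.00 to -1.56). Pik3ip1, an inhibitor of PI3 kinase found in resting T cells, was lower (36 against 365 UMIs, -2.21), as were Ly6c1 (-2.70) and the sphingosine receptor S1pr1 (-1.79), which lets T cells leave tissue. The lowest gene by the naming rule was Tcp11l2, with 11 UMIs against 579 (-4.54, -5.62 to -3.76). It had 1, 0, 6 and 4 UMIs in the 4 libraries of cluster 9. Ifit3, Ifit1 and Rtp4, induced by interferon, were at -1.45, -1.38 and -1.37. Btg1, a gene that restrains proliferation, was at -1.46 (326 against 897 UPM).

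Effector genes did not go 1 way. In the list of cytotoxic granules and cytokines, 5 of 24 genes were at least 2-fold higher and 5 lower (median -0.28). Over all genes these shares were 9.57% and 6.17%. Gzma, a granzyme, was higher in the sum (1655 against 373 UPM, 2.15), with within-library ratios of 1.09, 3.28, 2.56 and 0.64 in the 4 libraries. NK-marked cells held 54.6% of the Gzma UMIs of cluster 9, and without them the ratio was 1.20. Prf1, perforin, was higher in the 4 libraries by 0.50 to 1.57. NK-marked cells held 38.3% of its UMIs, and its ratio was 1.34 with them and 0.79 without. Within Cd8 cells Gzma was at 0.23 (0.13 to 0.33, above 0 in 2 of 4 libraries) and Prf1 at 0.42 (-0.05 to 0.90). The chemokines Ccl5 (924 against 3270 UPM, -1.82) and Ccl4 (443 against 1475, -1.73) were lower. Cxcr6, a chemokine receptor of tissue T cells, was lower in every library (-1.46 to -1.05). The inhibitory receptor Lag3 was lower in every library as well (-1.20 to -0.66), and Pdcd1 was on both sides (0.36, -1.01, -0.42 and 0.36). The regulatory T cell list had 7 of 15 genes at least 2-fold lower (median -0.95), among them Foxp3 (27 against 185 UMIs, -1.64). The reference includes cluster 10, in which 113 of 403 cells had a Foxp3 UMI. Within Cd8 cells the list median was -0.22, and within Cd4 cells -0.51.

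Because cluster 9 and its reference held different lineages, the comparison was repeated within Cd8 cells and within Cd4 cells. The G2/M medians were 4.66 and 5.16 and the S phase medians 2.87 and 2.63. The T cell receptor list was at -0.445 and -0.475, the interferon list at -0.78 and -0.62 and the naive and memory list at -0.77 in each. These lists were thus displaced alike in both lineages. Ccl5 in dividing Cd8 cells was at 1410 UPM against 7504 in non-dividing Cd8 cells (-2.41), and Il7r at 71.1 against 162 (-1.18). Gzmb differed little there (3373 against 2854 UPM, 0.24, above 0 in 2 of 4 libraries). With cluster 8 alone as the reference, the non-cycling cluster in which 73.6% of cells had a Cd8a UMI, the whole cluster 9 had 1180 genes at least 2-fold higher and 423 lower, and Gzmb was at -0.42, Tcf7 at 0.72, Ctla4 at 0.52 and Tnfrsf9 at 0.59, each on the other side of 0.

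Dividing Cd8 and Cd4 cells differed from each other in receptors. Pdcd1 was higher in Cd8 than in Cd4 cells of cluster 9 (317 against 138 UPM, 1.19, 0.87 to 1.54, in 4 of 4 libraries). In the non-cycling clusters it was lower in Cd8 than in Cd4 cells (229 against 326 UPM, -0.51, in 4 of 4 libraries). Lag3 showed the same turn, with 401 against 260 UPM in cluster 9 (above 0 in 3 of 4 libraries) and 570 against 782 UPM outside it (0 of 4). So both genes were a smaller share of all UMIs in dividing than in non-dividing Cd4 cells (-1.23 for Pdcd1 and -1.59 for Lag3, under 0 in every library). Dividing cells held more UMIs each, so a smaller share need not mean fewer transcripts in a cell. In Cd8 cells the same ratios were 0.47 for Pdcd1 (above 0 in 3 of 4 libraries) and -0.51 for Lag3 (0 of 4). Ctla4 was higher in Cd4 than in Cd8 cells in both settings (289 against 126 UPM in cluster 9). Mki67 (198 and 179 UPM) and Top2a (450 and 412 UPM) were close in dividing Cd8 and Cd4 cells, with ratios of 0.15 (-0.16 to 0.47) and 0.12 (-0.08 to 0.34).

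Between antibody groups, cluster 9 of each treated library was set against cluster 9 of the control library, which all 3 comparisons share. With anti-PD-1, 279 of 5547 genes were at least 2-fold higher (5.03%) and 283 lower (5.10%). With anti-CTLA-4, 307 of 6633 were higher (4.63%) and 351 lower (5.29%), and with the combination 351 of 6058 (5.79%) and 316 (5.22%). The lists of the cell cycle had medians near 0. For G2/M genes 3 of 55, 2 of 56 and 4 of 55 were at least 2-fold lower and none was higher, with medians of -0.09, -0.12 and -0.25. Above 0 were 21 of 55, 20 of 56 and 12 of 55 G2/M genes, so most leaned under 0, the more so with the combination. Over all genes 2692 of 5547, 3280 of 6633 and 3127 of 6058 were above 0. S phase medians were -0.02, 0.18 and 0.08, with 21 of 45, 34 of 50 and 29 of 48 genes above 0.

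Pdcd1, the gene of the receptor that anti-PD-1 binds, was higher in the control than in each treated library. In Cd8 cells of cluster 9 it stood at 552, 178, 217 and 227 UPM in the 4 libraries, from 264, 41, 128 and 53 UMIs. The control was above all 3 treated libraries, whose intervals overlap one another. The log2 ratios to control were -1.62 (-2.14 to -1.15), -1.35 (-1.67 to -1.04) and -1.27 (-1.74 to -0.85). A Pdcd1 UMI was found in 62.8%, 39.1%, 45.7% and 42.9% of these cells, and in 35.1%, 17.4%, 13.8% and 16.7% after thinning. The macrophage-like clusters had 0.798%, or 0.160% after thinning, at a median of 3519 UMIs against 4982 in the Cd8 cells. In cluster 8 the same gene was at 346, 250, 237 and 124 UPM, with ratios of -0.46, -0.54 and -1.46. In the whole of cluster 9 it was at 422, 141, 168 and 184 UPM, and the ratios without the NK-marked cells were -1.43, -1.285 and -1.30.

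Other inhibitory receptors took other orders. Lag3 in Cd8 cells of cluster 9 was at 400, 439, 417 and 330 UPM in the 4 libraries, with ratio intervals that all included 0. The list of inhibitory receptors had medians of -0.29, -0.39 and -0.62 in the whole cluster and -0.11, -0.215 and -0.30 in its Cd8 cells, from 9, 10 and 9 measured genes in the whole cluster. With the combination, Lair1 was the member farthest from 0 (34 against 9 UMIs, 1.69), with 70.6% of its UMIs in 1 cell and 0.32 without the cell with most UMIs in each library. Klrc1, an inhibitory receptor shared with NK cells, was at -1.34 there (200 against 450 UMIs), beside -1.19 for Pdcd1 in the whole cluster. Ctla4 in the whole cluster was at 199, 95.2, 168 and 263 UPM, so it was lowest with anti-PD-1 (-1.05, -1.55 to -0.59) and highest with the combination (0.40, 0.08 to 0.73). In the non-cycling cells the anti-PD-1 ratio of Ctla4 was -0.73 and the combination ratio -0.02. After thinning the combination ratio in cluster 9 was -0.03.

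For granzyme A the control was lowest. In Cd8 cells of cluster 9 Gzma was at 312, 1261, 1309 and 1508 UPM in the 4 libraries. The ratios were 2.01 (1.73 to 2.31), 2.07 (1.81 to 2.33) and 2.27 (1.99 to 2.56). The share of Cd8 cells with a Gzma UMI was 16.0%, 52.2%, 50% and 61.9%, and 8.51%, 32.6%, 24.5% and 50% after thinning. The macrophage-like clusters had 6.62%, or 2.06% after thinning. In control, 45.0% of the Gzma UMIs of Cd8 cells lay in 1 cell. Cluster 8 showed smaller ratios with the single antibodies (0.71 and 0.66) and 1.82 with the combination, from 557, 911, 879 and 1973 UPM. The difference between dividing and non-dividing cells in these ratios was not tested. In the whole cluster Gzma was at 575, 2960, 2237 and 783 UPM, and NK-marked cells held 36.8%, 66.4%, 57.2% and 22.9% of those UMIs. Without them the ratios of the whole cluster went from 2.36, 1.96 and 0.44 to 1.64, 1.44 and 0.67.

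Granzyme B followed another order. In Cd8 cells of cluster 9 Gzmb was at 2536, 2418, 4112 and 4157 UPM in the 4 libraries, with ratios of -0.07 (-0.22 to 0.08), 0.70 (0.60 to 0.80) and 0.71 (0.59 to 0.84). It was thus higher in the 2 libraries that had received anti-CTLA-4. In Cd4 cells it was at 1208, 1016, 378 and 346 UPM, so the 2 libraries with anti-CTLA-4 were lower there, from 58, 61, 92 and 101 UMIs, with 10 cells in control. Over the whole cluster the levels were 2259, 2363, 2913 and 1608 UPM, so the combination was lower than control there (-0.49). In cluster 8 the Gzmb ratios were 0.08, 0.51 and 0.07.

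**Figure D4:**
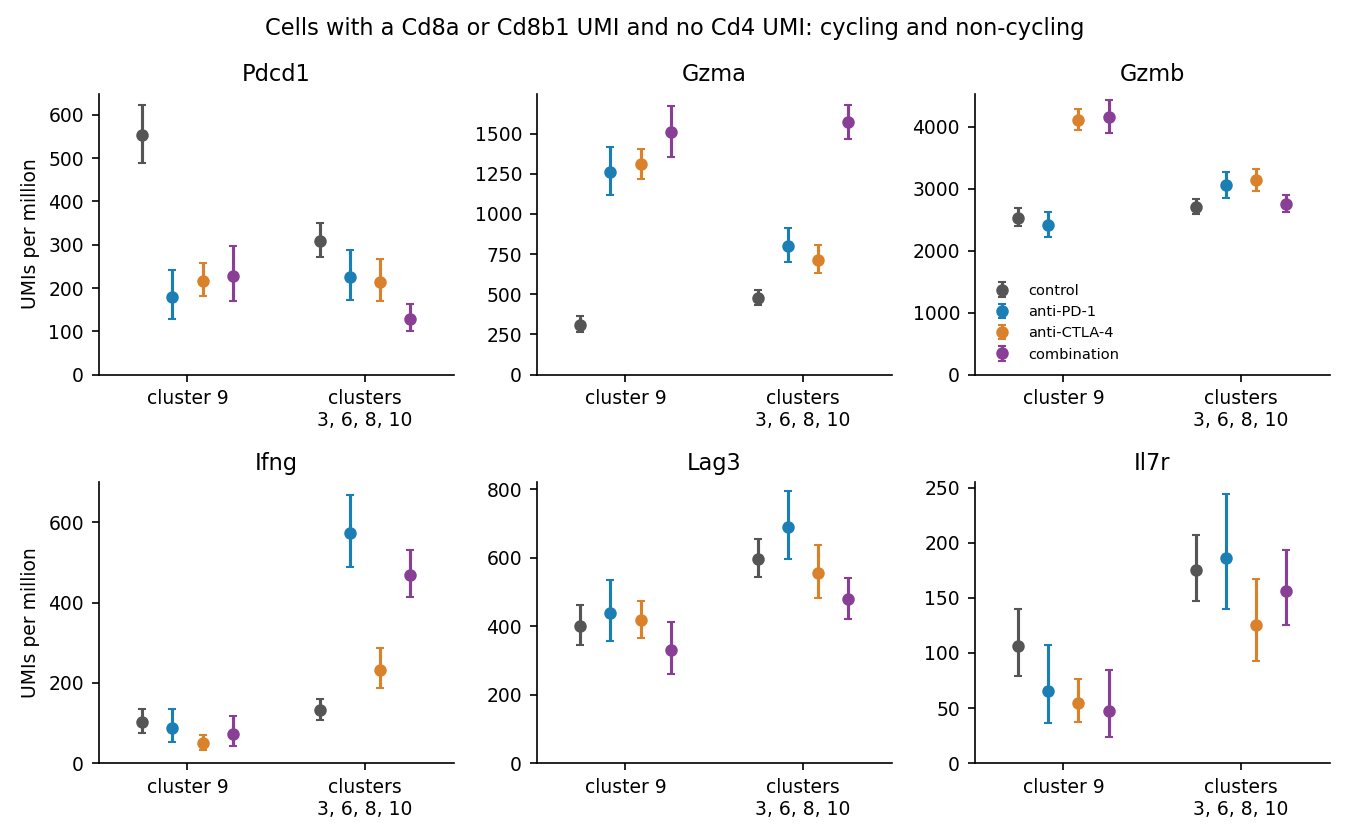
UMIs per 1000000 of 6 genes (y axes, from 0) in Cd8 cells of cluster 9 and of the non-cycling T clusters, with 1 point per library and bars for the 95% counting interval. Pdcd1 of the control is highest in cluster 9 at 552, Gzma of the control is lowest at 312, and Ifng runs from 132 to 574 in non-cycling Cd8 cells and from 49.1 to 103 in cycling ones.

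Ifng, the effector cytokine interferon-γ, had its control level on opposite sides of the treated libraries inside and outside cluster 9. In the non-cycling T clusters it was at 101, 353, 181 and 290 UPM in the 4 libraries. In cluster 9 it was at 128, 71.4, 60.1 and 85.0 UPM, from 87, 39, 71 and 65 UMIs, so the control was highest there and lowest outside. The ratios to control were -0.83, -1.09 and -0.59 in cluster 9 and 1.80, 0.84 and 1.51 outside. Of the 87 control UMIs, 28 lay in 2 NK-marked cells, and without NK-marked cells the cluster 9 ratios were -0.245 (-0.90 to 0.37), -0.51 (-1.02 to 0.02) and -0.10 (-0.63 to 0.44), so every interval included 0. Within libraries Ifng was lower in cluster 9 than outside it in the 3 treated libraries (-2.29, -1.58 and -1.76) and not in control (0.34). Without NK-marked cells the control level in cluster 9 was 93.2 UPM, under the 101 outside. In Cd8 cells alone the levels were 103, 87.0, 49.1 and 72.8 UPM inside cluster 9 and 132, 574, 233 and 469 UPM outside. In control, 32.7% of the Ifng UMIs of Cd8 cells in cluster 9 lay in 1 cell. An Ifng UMI was found in 21.3%, 19.6%, 22.3% and 30.95% of Cd8 cells of cluster 9. After thinning these shares were 4.255%, 8.696%, 7.447% and 7.143%, so the control was not highest by share of cells at either depth. In Cd8 cells of cluster 8 the full-depth shares were 16.5%, 21.5%, 18.75% and 15.4%, so the control was not lowest there.

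Some early response genes were higher in cluster 9 of the combination. In the immediate early list 4 of 16 genes were at least 2-fold higher and none lower (median 0.45), beside 5.79% of all genes higher. With anti-PD-1 and anti-CTLA-4, 0 of 13 and 1 of 15 were higher (medians -0.36 and -0.19), beside 5.03% and 4.63% of all genes. Nfkbia, an inhibitor of NF-κB that NF-κB itself induces, was at 168, 242, 348 and 739 UPM in the 4 libraries. Its ratios were 0.53, 1.05 and 2.13, and in Cd8 cells alone 0.61, 1.03 and 1.92. In the non-cycling clusters they were 0.65, 1.08 and 1.28. Junb, part of the AP-1 factor, was at 406, 463, 568 and 973 UPM, with a combination ratio of 1.26 in cluster 9 and 1.16 outside. Dusp1, a phosphatase that ends MAP kinase signals, had ratios of 1.30 and 0.87. Non-cycling cells showed the list higher in all 3 treated libraries (0.40, 0.39 and 0.735). Tumours were digested with collagenase before the sort, and the part of that step in these genes was not tested.

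In the list of effector and exhaustion transcription factors, 5 of 17 genes were at least 2-fold higher with the combination and 1 lower (median 0.43). Over all genes 5.79% were higher by that step and 5.22% lower. Above 0 were 10 of 17, near the 3127 of all 6058 genes. With anti-CTLA-4, 2 of 16 were higher and 2 lower (median 0.39), beside 4.63% and 5.29% of all genes. Above 0 were 11 of 16, beside 3280 of all 6633 genes. Nr4a1 had 6, 5, 29 and 35 UMIs in the 4 libraries, or 8.82, 9.15, 24.5 and 45.8 UPM. Outside cluster 9 Nr4a1 had 69, 39, 88 and 125 UMIs. Within libraries its share in cluster 9 was lower than outside in all 4 (-1.82, -1.67, -1.43 and -0.27). Bhlhe40 was at 94.1, 185, 209 and 278 UPM, with ratios of 0.97, 1.14 and 1.56 in cluster 9 and 0.89, 1.59 and 1.27 outside. Batf was at 72.1, 89.7, 110.0 and 156 UPM, with a combination ratio of 1.10 (0.62 to 1.62) in cluster 9 and 0.15 (-0.08 to 0.38) outside. The Batf ratio in Cd8 cells of cluster 9 was 0.71 (-0.16 to 1.54). Cdkn1a, the CDK inhibitor p21, had 34, 57, 94 and 148 UMIs (combination ratio 1.94, and 2.56 in Cd8 cells, with 1.45 outside). E2f1 had 10 UMIs in control and 37 with the combination (1.67), with -0.12 outside. For none of these genes was the difference between cluster 9 and the outside tested.

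Interferon-induced genes were lower in cluster 9 of anti-CTLA-4, with 5 of 22 at least 2-fold lower, none higher and 20 of 22 under 0 (median -0.45). Over all genes 5.29% were at least 2-fold lower, and 3280 of 6633 were above 0. The list median was -0.30 with the combination, with 7 of 23 above 0, and 0.007 with anti-PD-1, with 12 of 23 above 0. Rtp4 was at 51.5, 31.1, 16.1 and 23.5 UPM in the 4 libraries, and Irf7, a factor that amplifies interferon responses, at 54.4, 32.9, 21.2 and 32.7. Control was highest for both. In the non-cycling clusters the list median with anti-CTLA-4 was 0.03, and in Cd8 cells of cluster 9 it was -0.17.

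The genes at the extremes of the antibody comparisons often rested on few cells. Of 36 places in the 3 sets of 6 highest and 6 lowest genes, 13 went to genes with at least 50% of the higher library's UMIs in 1 cell, and 4 of those were under 2-fold without that cell (Zkscan1, Apoe, Atxn7 and Espl1). With anti-PD-1 and anti-CTLA-4 the highest genes included Gzma, Gzmc, Gzmd and the secreted phosphoprotein gene Spp1. NK-marked cells held 75% and 62.5% of the Gzmc UMIs, 52.8% and 90.9% of the Gzmd UMIs and 68.7% and 85.7% of the Spp1 UMIs of these libraries. The Gzmc ratios in Cd8 cells of cluster 9 were -2.74 (3 against 48 UMIs) and 0.17, so the anti-PD-1 ratio lay on the other side of 0. Without NK-marked cells Gzmc went from 2.78 and 2.15 to 0.97 and 0.785, Gzmd from 3.31 and 3.41 to 2.42 and 0.02, and Spp1 from 3.06 and 2.00 to 2.17 and -0.15. Serpinb9b, a serpin of cytotoxic lymphocytes, kept its size without them (2.95 and 2.85 with anti-CTLA-4). It had 100 UMIs in 32 cells of anti-CTLA-4 and 7 UMIs in 5 cells of control.

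Dapl1, a gene of naive and memory-like T cells, was among the lowest with anti-PD-1 and the combination. It had 95 UMIs in 12 control cells, 7 in 4 cells with anti-PD-1 and 2 in 2 cells with the combination (-3.35 and -5.43). In Cd8 cells of cluster 9 it was at 195, 8.70, 62.6 and 8.57 UPM in the 4 libraries. Ncr1, an activating receptor of NK cells, was among the lowest with the combination (9 against 72 UMIs, -3.10), beside the 2 NK-marked cells there. Without NK-marked cells, which Ncr1 itself helped to choose, it was at -0.72 (-2.38 to 0.79). Several other extremes are genes of macrophages. Mmp12, Chil3, Mgl2 and Arg1 were among the highest with the combination, with 79, 62, 57 and 129 UMIs, and Ms4a7 (50 UMIs in control and 6) and the chemokine Ccl8 (309 and 68) among the lowest. Of the control UMIs, 60.0% for Ms4a7 and 43.0% for Ccl8 were in 1 cell. Of the combination UMIs, 74.2% for Chil3, 57.0% for Mmp12 and 49.1% for Mgl2 were in 1 cell, and Mgl2 was seen in 3 cells there. Arg1 was spread over 45 cells of the combination and 7 of control (3.20, 2.40 to 4.25).

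The balance of S phase to G2/M transcripts was taken as the ratio of UMIs of the 50 S phase genes to those of the 57 G2/M genes. Its log2 value was -0.51, -0.41, -0.23 and -0.12 in the 4 libraries. After thinning it was -0.475, -0.21, -0.21 and -0.18, so the treated libraries lay together and above control at equal depth. In Cd8 cells it was -0.55, -0.64, -0.09 and 0.185, and in Cd4 cells -0.22, -0.06, -0.29 and -0.16. The thinned Cd8 values were -0.44, -0.49, -0.08 and 0.085, and the thinned Cd4 values -0.37, 0.017, -0.38 and -0.30. A cell had more S phase than G2/M UMIs in 43.8%, 49.1%, 51.0% and 48.6% of cells, and 25 of the 591 cells lay within 2 UMIs of equal. The ratio orders cells along the cycle and gives no rate of division.

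**Figure D5:**
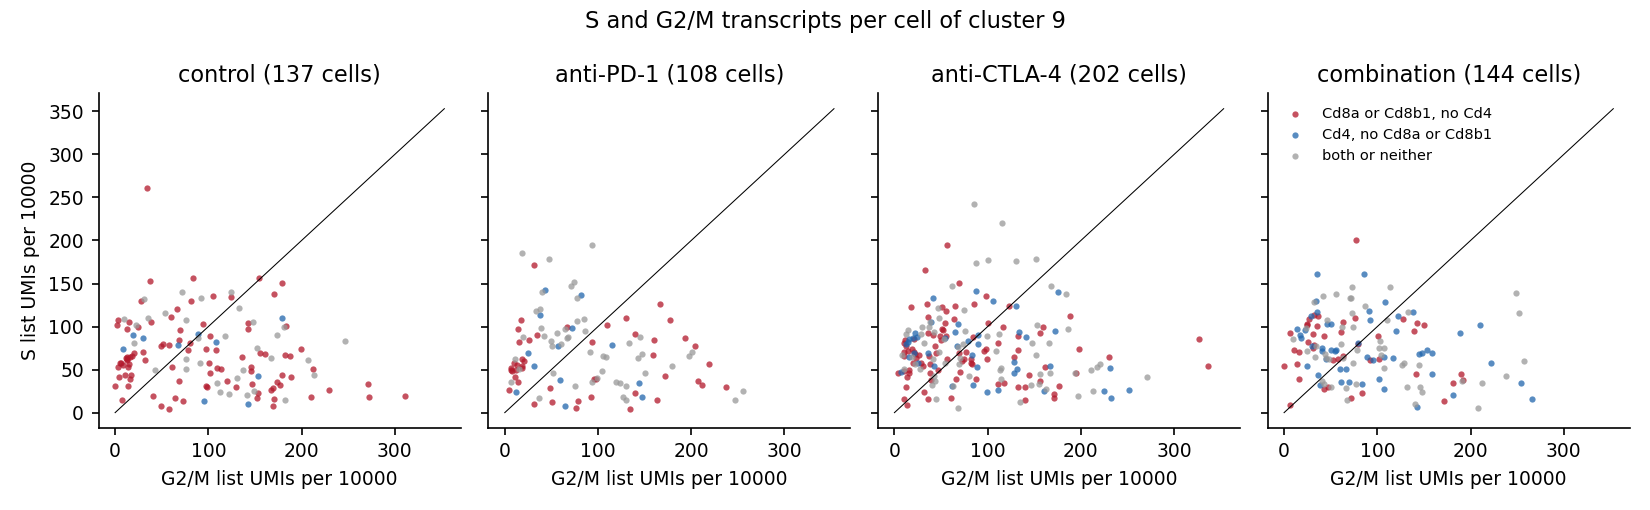
UMIs of the G2/M list (x axis) and of the S phase list (y axis) per 10000 UMIs of each cluster 9 cell, 1 panel per library, coloured by lineage, with a line at equal values. Each library holds cells on both sides of the line, with 43.8% of control and 51.0% of anti-CTLA-4 cells having more S phase UMIs.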

How the data were processed

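Single CD45+ cells were measured with the 10x Chromium 3′ v1 kit, per the labels' protocols. The deposited files hold raw counts of UMIs for each gene in each cell, which the authors made with Cell Ranger and analysed with Seurat on mm10, per the submitters' processing notes; no version was given in the sources used here. Cluster numbers come from the authors' tables. Of 14493 listed cells, 14491 matched 1 of 14618 matrix columns, over 27998 genes. Cells were kept as listed, and no doublet was removed.

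UMI counts were summed per library and class. Log2 ratios of shares of UMIs, with 0.5 added to each count, carry exact conditional binomial 95% intervals. Intervals and limits cover counting error only. With 1 library a group no test was run. A call is a 2-fold ratio among genes with at least 20 UMIs in both sums together. Cells were thinned to 1000 UMIs (seed 1), and cells with fewer were left out of thinned values. The genes named were 22 key genes, the 12 highest and 12 lowest (6 each for antibodies) by the interval bound nearest 0 among genes with 50 UMIs in 1 sum and 50 UPM in the higher, and up to 4 of each of 22 lists by size of ratio; others were chosen after their values were seen. Members, lists and 15 marker lists were chosen with earlier results of these data known. The ratio step was tested on simulated data. Tools were numpy 2.4.6, scipy 1.17.1, pandas 2.3.3 and scanpy 1.11.5 (Scrublet). Alternatives were other scalings, minimums, reference clusters and sets of cells.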

Additional observations from a re-analysis of the deposited data

Results flagged for a closer look

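Each result here is a pair in which cluster 9 and the non-cycling T clusters, or Cd4 and Cd8 cells, lay on opposite sides of 0 in the same comparison with control, with both intervals off 0. The difference was not tested for any of them, and all share the control library.

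With the combination, the log2 ratio of the cycling share was 1.86 among Cd4 cells and -0.59 among Cd8 cells. After thinning the combination and control shares were 5.76% (2.91 to 10.07) and 2.25% (0.62 to 5.65) among Cd4 cells. Among Cd8 cells they were 14.5% (10.2 to 19.9) and 19.5% (15.5 to 24.0), so the intervals overlapped in each lineage. Ifng was at -0.83 in cluster 9 and 1.80 outside it with anti-PD-1, at -1.09 and 0.84 with anti-CTLA-4, and at -0.59 and 1.51 with the combination. Without NK-marked cells the cluster 9 values were -0.245, -0.51 and -0.10 with every interval including 0, so none of the 3 pairs kept both intervals off 0. Gzmb with anti-CTLA-4 was at 0.37 in cluster 9 and -0.46 outside. In Cd8 cells of cluster 9 and in cluster 8 it was above 0 in each (0.70 and 0.51). Il2ra, the high-affinity chain of the IL-2 receptor, was at 1.27 and -0.44 with anti-PD-1, from 76 UMIs in cluster 9 against 39 in control. In Cd8 cells of cluster 9 Il2ra was at 0.17 (-1.21 to 1.38). Serpinb9b was at 2.19 and -0.59 with the combination.

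Genes of other cells or of single cells made up the rest. Spp1 with anti-PD-1 was at 3.06 in cluster 9 and -0.47 outside. Apoe was at -2.335 and 0.75, with 81% of the control UMIs in 1 cell. Ccl8 was at -0.55 and 2.64 with anti-PD-1 and at -2.35 and 0.94 with the combination. Lyz2 with anti-PD-1 was at -0.33 and 0.44. Fam168a with the combination was at 4.08 and -0.98.

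Barcodes that the authors' table does not list also held T cell transcripts together with transcripts of division. Of 127 such barcodes, 58 had a UMI of a Cd3 gene and one of Mki67 or Top2a, with 19, 6, 20 and 13 in the 4 libraries, in the order used above. Their median was 15508.5 UMIs, 55 of them held at least 2 UMIs of C1q genes or Lyz2, and 124 of the 127 had over 3000 genes.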

How the results depend on the processing

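With 1 library a group, depth and the number of cells limit every antibody comparison, and nothing separates a group from its library. No paired analysis was possible because each group has 1 library. An alternative value counted as kept if it lay within the interval of the main value, even where its sign differed. Numbers of genes and list medians counted as kept within a set margin of the main value. By these rules 87 values of the main results were kept and 37 moved. Of the gene values 729 were kept, 123 moved and 23 changed sign, and of the list medians 619 were kept and 63 moved. A change of sign was counted for genes only where the whole main interval had 1 sign. The causes were not tested. The exclusions of NK-marked cells, of single top cells and the addition of unlisted barcodes were chosen after seeing the data. The second table's cluster numbers gave no Cd4 and Cd8 split, since 534 of 591 cells shared 1 cluster.

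Over all listed cells the share ratio was -0.19 for anti-PD-1 and 0.74 for anti-CTLA-4, and with the marker gate -0.056 for anti-PD-1. Against the non-cycling clusters, no minimum gave 2283 genes higher and 1550 lower, and a minimum of 50 gave 404 lower. Thinned, at a minimum of 50 and with none, anti-PD-1 had 91, 120 and 1745 genes higher and 89, 105 and 1919 lower. Anti-CTLA-4 had 104, 146 and 1149 higher and 110, 149 and 1781 lower, and the combination 132, 151 and 1892 higher and 105, 131 and 1827 lower. Thinning put Cd8 cells at 50.4% in control and 37.1% with anti-CTLA-4, and Cd4 cells at 2.92%, 4.63%, 6.93% and 7.64%. The S to G2/M balance was -0.676 in control and -0.034 in the combination with unlisted barcodes, -0.21 (anti-PD-1) and -0.18 (combination) thinned, and -0.585, -0.48 and -0.175 in control, anti-PD-1 and anti-CTLA-4 without NK-marked cells.

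Among genes whose main interval lay off 0, signs that changed against cluster 8 alone were Cd4 (0.91), Cd8a (-1.515), Cd8b1 (-1.66), Ctla4 (0.52), Foxp3 (1.11), Furin (0.13), Gzmb (-0.42), Tcf7 (0.72) and Tnfrsf9 (0.59). The share of higher genes among those called went from 60.8% to 73.6%. Thinned, Havcr2 against the non-cycling clusters was at 0.016 and Ctla4 with the combination at -0.031. In Cd8 cells alone, anti-PD-1 gave Cd8a 0.021, Cd8b1 0.068, Gzmc -2.74 and Prf1 -0.082, anti-CTLA-4 gave Lag3 0.059, Spp1 -0.52 and Tnfrsf9 0.20, and the combination gave Gzmb 0.71 and Tnfrsf9 0.21. With anti-PD-1, Apoe was at 0.035 without the top Scrublet scores and Atxn7 at -0.13 without its top cell, and with anti-CTLA-4 Spp1 was at -0.15 without NK-marked cells.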
